A study of Drosophila melanogaster with 16 samples.

Results

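The genes described here are the eukaryotic translation initiation factors of Drosophila melanogaster, measured in whole adult testes. They were chosen by name: every probe set of the array that carries 1 gene symbol beginning with eIF was taken. This gave 43 probe sets for 37 genes, out of 13966 probe sets on the array, of which 12443 carry 1 symbol. All 37 symbols are current RefSeq symbols. RefSeq names 44 genes this way, and the other 7 (eIF1A, eIF2alpha, eIF2gamma, eIF2D, eIF4B, eIF4EHP and eIF4H1) were not analysed here. Of the 37 genes, 10 are second copies or testis isoforms of a factor (eIF4E3 to eIF4E7, eIF4G2, eIF4H2, eIF3d2, eIF3f2 and eIF3g2) and are called paralogs below. The other 27, with 31 tested probe sets, are called standard factors.

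RNA was taken from wild-type testes, from testes of bgcn mutant males and from testes of males labelled Os+bgcn, which carry the bgcn mutation too. There were 5, 5 and 6 samples of these genotypes, each hybridised to its own array and described by the submitters as a biological replicate. bgcn acts with bam to end spermatogonial division, so mutant testes fill with dividing early germ cells and lack spermatocytes and spermatids. upd1, the JAK-STAT ligand made by the testis hub, was formerly called Os or outstretched. The sources used here do not give the bgcn allele, the way Os was supplied or the age of the males. Pools of 750 testes were used for bgcn and of 150 for the other genotypes, so pool size and genotype cannot be told apart where bgcn alone differs.

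Initiation begins when eIF4E binds the cap of an mRNA and eIF4G joins it to the helicase eIF4A, together the eIF4F complex. eIF3 links this complex to the small ribosomal subunit, eIF2 brings the initiator tRNA, and eIF2B recharges eIF2 with GTP. eIF1 and eIF5 act in start codon selection, eIF5B joins the subunits, and eIF6 keeps the large subunit apart until it is mature. In Drosophila males, eIF4E3 and eIF4G2 are known as factors that spermatocytes need for meiosis and spermatid formation, and translational control matters because late spermatids use mRNAs stored since the spermatocyte stage.

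Values are array signals on a linear scale, and each log2 difference is on the log2(signal + 18.8) scale with its standard error. The tissue labels were checked against marker lists. All 15 spermatid markers were lower in each mutant than in wild type, and their summed signal was 163271 to 191159 on wild-type arrays, against 400.1 to 1285.9 for bgcn and 503.9 to 918.7 for Os+bgcn. The 6 early germline markers had sums of 166.5 to 290.5 on wild-type, 2577 to 2967 on bgcn and 4608 to 5850 on Os+bgcn arrays. Accessory gland markers, which are not testis genes, had sums of 4635 to 16364 on wild-type, 2943 to 18005 on bgcn and 296 to 2046 on Os+bgcn arrays. Spermatocyte and meiosis markers had sums of 2398 to 2964, 479 to 657 and 666 to 804 in the same order of genotypes. Of the 9 tested, 7 were lower and 2 did not pass in each mutant, beside 22.6% and 24.2% of all tested probe sets lower. Muscle sheath markers had 2535 to 3017.5, 3899 to 6179 and 2363 to 3974. Hemocyte markers had 470 to 594, 1589 to 2110 and 733 to 1472. Fat body markers had 606 to 960, 1508.5 to 2436.5 and 559 to 1888. No marker was listed at 0 on any array. The summed signal of cyst and hub markers was higher in Os+bgcn, at 3200 to 4142 against 778 to 829 in bgcn. This list includes upd1, the gene formerly called Os, with a mean of 9.6 in bgcn and 396 in Os+bgcn. Another member, eya, went the other way, from 215 in bgcn to 99.8 in Os+bgcn. In these bulk samples fewer cells of a type and less RNA per cell cannot be told apart, and the part of tissue makeup in the results below was not tested. The median signal was 56.2 to 59.4 on wild-type arrays and 66.95 to 74.5 on mutant arrays. Arrays of a group correlated at 0.870 to 0.960 on the log2 scale. On bgcn replicate 1 the initiation factors sat low: it was the lowest of the 5 bgcn arrays for 21 of 42 tested probe sets, or 50%, against 27.1% of all tested probe sets.

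Standard factors and paralogs were first counted together. Of 42 tested probe sets, 22 were higher and 11 lower in bgcn than in wild type at an adjusted p under 0.05 (limma, adjusted over all 10422 tested probe sets). The background was 47.2% of all tested probe sets higher and 22.6% lower, beside 52.4% and 26.2% of the initiation factors, so the counts themselves lie near the background. Between Os+bgcn and wild type 23 were higher and 10 lower, or 54.8% and 23.8%, beside a background of 47.3% and 24.2%. No overlap between bgcn and wild-type arrays was seen for 19 higher and 11 lower probe sets, against 35.3% and 19.3% of all tested probe sets. Os+bgcn and wild-type arrays did not overlap for 20 higher and 9 lower probe sets, against 37.9% and 20.1% of all tested. Both mutant comparisons share the wild-type arrays.

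Among the 31 probe sets of standard factors, 22 were higher, 1 was lower and 8 did not pass in each mutant, with a median log2 difference of 1.14 in bgcn and 1.37 in Os+bgcn. Beside these and the paralog counts, 47.2% of all tested probe sets were higher and 22.6% lower in bgcn. The shares in Os+bgcn were 47.3% and 24.2%. Among the 11 probe sets of paralogs none was higher in bgcn, 10 were lower and 1 did not pass; in Os+bgcn 1 was higher, 9 were lower and 1 did not pass. Of these 11, 7 (eIF3d2, eIF3g2, eIF4E4, eIF4E5, both of eIF4E7 and eIF4H2) passed the filter on dim signals through wild-type arrays alone, as did 651 of all tested probe sets, and so had to differ. Among the standard factors, eIF2Bgamma and eIF2Bepsilon passed this filter through mutant arrays alone, so their selection already favoured a call of higher. The probe sets of eIF2Balpha, eIF3c, eIF3f1 and eIF3g1 were above the filter value on fewer than 5 wild-type arrays. They too needed mutant arrays to pass, which favoured the same call. The last eIF probe set, a second one of eIF2Bdelta, was above the filter on 4 arrays and was not tested. Over all tested probe sets the median difference was 0.46 in bgcn and 0.43 in Os+bgcn, which array-median centring moved to 0.23 and 0.20. Relative to that overall median, 23 of 31 standard and 0 of 11 paralog probe sets lay above it in bgcn, and 23 of 31 and 1 of 11 in Os+bgcn.

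The sign of many standard factors depended on the scaling. Ribosomal protein genes, another large group of the translation machinery, rose by a median of 2.02 in bgcn and 1.62 in Os+bgcn. These 37 genes were taken by name. Second copies such as RpS5b and genes named as like a ribosomal protein, such as RpL24-like, are among them. Each array was then centred on its ribosomal protein genes. The eIF counts became 4 higher and 28 lower in bgcn, and 8 higher and 21 lower in Os+bgcn. Over all 10422 tested probe sets the counts became 247 higher and 7697 lower in bgcn, and 928 and 6118 in Os+bgcn. The shift was thus not particular to the initiation factors. In bgcn the 4 eIF probe sets that were still higher were eIF3c, eIF3f1, eIF3g1 and eIF4G1. In Os+bgcn these 4, eIF3d1 and the alpha, gamma and epsilon subunits of eIF2B were higher. Of the genes named here, eIF3c, eIF3f1, eIF3g1 and the eIF2B subunits needed mutant arrays to pass the filter on dim signals. "Higher" and "lower" below refer to the deposited scaling. Differences between a paralog and its standard factor on the same array do not depend on the centring of the array.

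**Figure D1:**
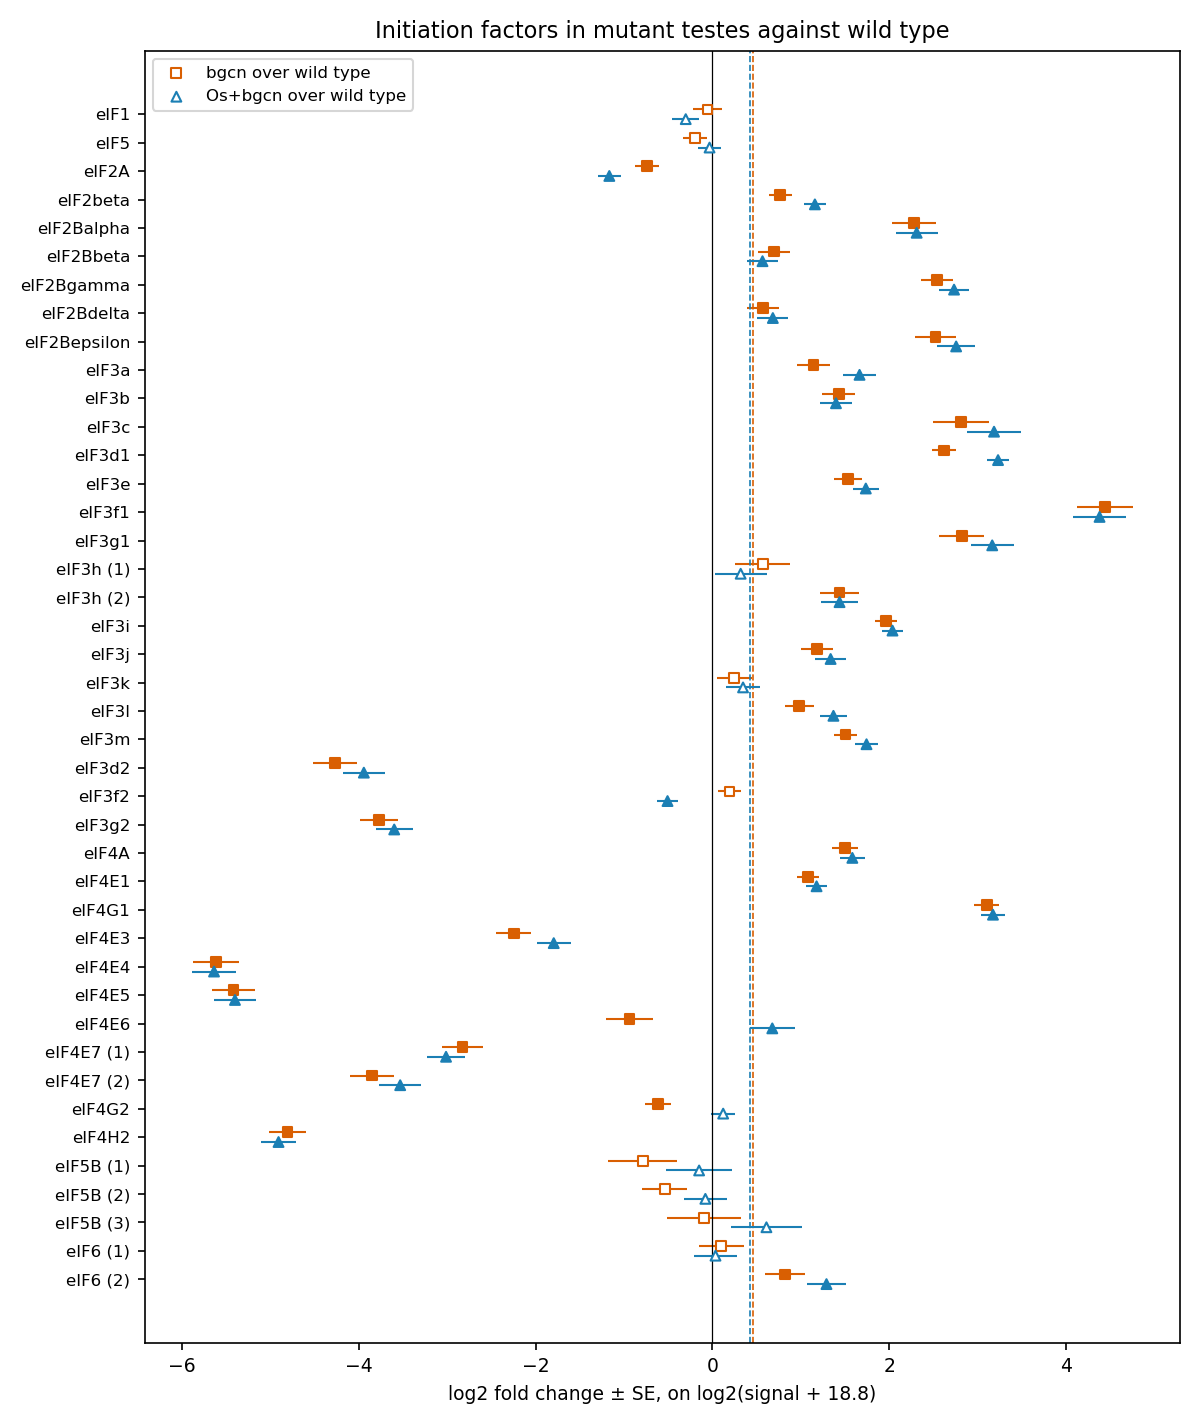
Log2 differences from wild type on the log2(signal + 18.8) scale (x axis, with SE) for the 42 tested probe sets in bgcn (5 arrays) and Os+bgcn (6 arrays) against 5 wild-type arrays. Filled symbols passed an adjusted p of 0.05 and open ones did not, numbers in parentheses mark probe sets of 1 gene, and dashed lines give the median of all tested probe sets (0.46 and 0.43). The eIF3, eIF2B and eIF4F rows lie mostly right of 0 and the paralogs eIF4E4, eIF4E5, eIF4H2 and eIF3d2 far to its left. After centring on ribosomal protein genes, 10 of 14 eIF3 probe sets fell below 0 in bgcn and 6 of 14 in Os+bgcn. For eIF2B it was 2 of 5 in each mutant, and for eIF4F 2 of 3 in bgcn and 1 of 3 in Os+bgcn.

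The standard cap-binding complex was higher in both mutants. The eIF4E1 signal, that of the general cap-binding protein, was 1087.5, 848.9, 1023.4, 964 and 914.4 on the wild-type arrays and 1810.8, 1992.1, 2226.1, 1984.3 and 2357.7 in bgcn. The Os+bgcn values ran from 1888.5 over a median of 2136 to 2654.8. No mutant array reached down to the wild-type range. eIF4E1 was 2.14-fold higher in bgcn (log2 difference 1.08 ± 0.13, adjusted p = 2.0e-07) and 1.18 ± 0.12 higher on the log2 scale in Os+bgcn (adjusted p = 2.7e-08).

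eIF4G1, the scaffold that bridges cap and ribosome, moved more. Its signal was 72, 63.9, 48.1, 73 and 70.9 in wild type and 767.6, 659.6, 791.6, 766.3 and 558.5 in bgcn. In Os+bgcn the lowest value was 605, the median 723 and the highest 929.4. The lowest bgcn array was 7.65 times the highest wild-type array. The log2 difference was 3.11 ± 0.14 (adjusted p = 1.3e-13) in bgcn and 3.17 ± 0.14 (adjusted p = 3.9e-14) in Os+bgcn, and it kept its sign and passed after centring on ribosomal protein genes.

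eIF4A, the helicase that opens structure ahead of the ribosome, was at 1994.2, 2001, 1921.9, 2066.8 and 1685 in wild type and at 4171.9, 6056.2, 5736, 5520.5 and 6309.3 in bgcn. The Os+bgcn arrays ranged from 4958.1 to 6342.8. Both mutants were above every wild-type array, with log2 differences of 1.50 ± 0.15 and 1.58 ± 0.14 (adjusted p = 2.1e-08 and 4.3e-09). Relative to the median of all tested probe sets, the bgcn differences were 0.62 for eIF4E1, 1.04 for eIF4A and 2.65 for eIF4G1. After ribosomal centring, eIF4E1 was lower than wild type in bgcn at -0.93 (adjusted p = 0.0042) and at -0.32 (adjusted p = 0.34) in Os+bgcn, and eIF4A in bgcn was at -0.52 (adjusted p = 0.097).

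**Figure D2:**
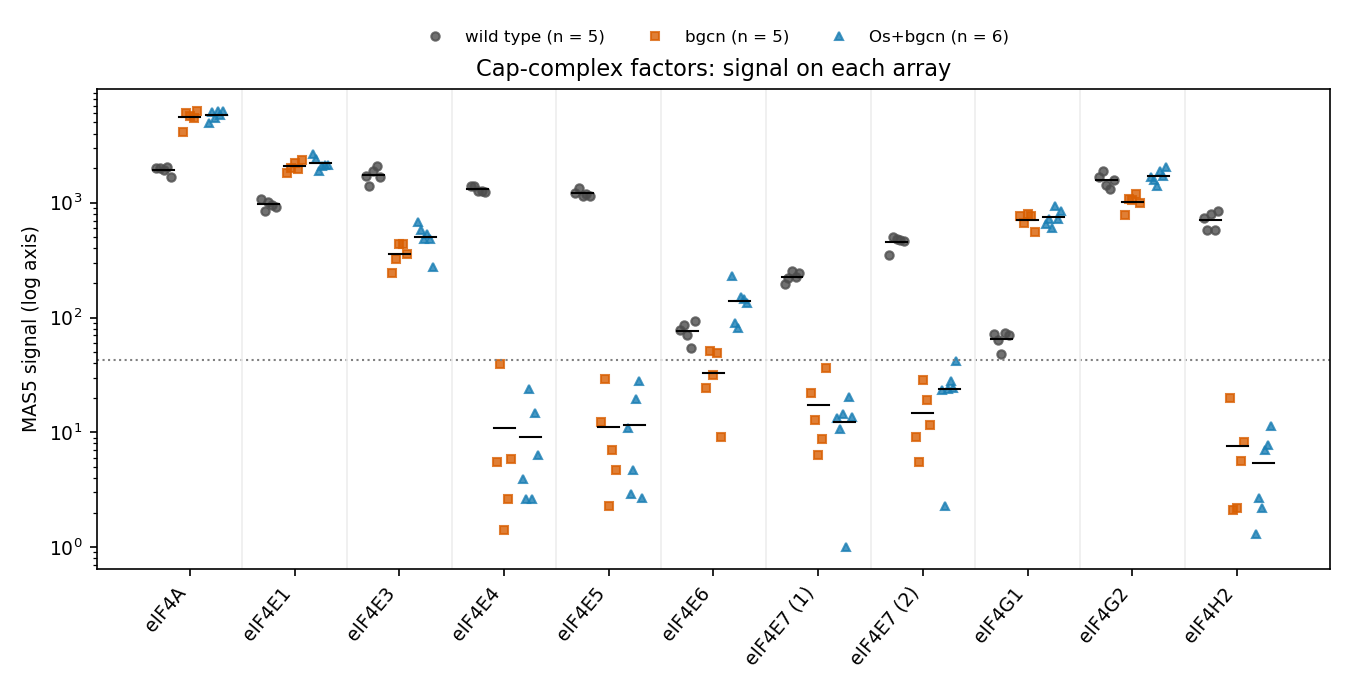
Array signal on a log axis (y axis) of each eIF4E, eIF4G, eIF4A and eIF4H probe set, with 1 point per array of wild type (5), bgcn (5) and Os+bgcn (6), black bars at group means and a dotted line at 42.9, the filter value. eIF4E1, eIF4G1 and eIF4A are higher in both mutants, while eIF4E4, eIF4E5, eIF4E7 and eIF4H2 fall below the dotted line in every mutant array; levels are not comparable between probe sets, and centring on ribosomal protein genes puts eIF4E1 below wild type.

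Of the cap-binding paralogs, eIF4E4 and eIF4E5 had the most negative log2(signal + 18.8) differences of the 42 probe sets, on a scale where their mutant signals lie near the floor. eIF4E4 read 1408.9, 1403.2, 1272.4, 1272.7 and 1248.2 in wild type and 5.5, 39.2, 1.4, 2.6 and 5.9 in bgcn. In Os+bgcn the lowest value was 2.6, the median 5.15 and the highest 23.9. Each wild-type array lay far above each mutant array, and bgcn replicate 2, at 39.2, stood apart from the other bgcn arrays. The log2 difference of eIF4E4 was -5.62 ± 0.26 (adjusted p = 1.9e-13) in bgcn and -5.64 ± 0.25 (adjusted p = 7.5e-14) in Os+bgcn. Selection through wild-type arrays alone had already fixed the separation of the arrays.

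eIF4E5 followed the same course, from 1208.8, 1348.3, 1147.8, 1193.7 and 1136.9 in wild type to 12.3, 29.4, 2.3, 7 and 4.7 in bgcn. In Os+bgcn the values ran from 2.7 over a median of 7.85 to 28. Wild-type and mutant arrays did not overlap, which selection through wild-type arrays alone had fixed. The log2 differences were -5.42 ± 0.25 and -5.40 ± 0.24 (adjusted p = 1.3e-13 and 5.5e-14). These mutant signals are near the bottom of the array's range, where the added 18.8 understates the change. eIF4E1 was at its higher level on the same arrays, so the eIF4E4 and eIF4E5 probe sets read little of any eIF4E1 RNA there.

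eIF4E7, another divergent cap-binding gene, has a pair of probe sets and both fell. The brighter one read 352.4, 507.2, 483, 477.5 and 463.3 in wild type and 9.1, 5.5, 28.6, 19.2 and 11.5 in bgcn. Its Os+bgcn values lay between 2.3 and 41.4 with a median of 24.1. The dimmer one was at 194.7, 220.3, 255.1, 224.7 and 243 in wild type, at 22, 12.8, 6.3, 8.8 and 36.6 in bgcn and between 1 and 20.4 in Os+bgcn. Neither probe set had overlapping wild-type and mutant arrays, which selection through wild-type arrays alone had fixed. Log2 differences were -3.85 ± 0.25 and -2.83 ± 0.23 in bgcn, and -3.53 ± 0.24 and -3.01 ± 0.22 in Os+bgcn.

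eIF4H2, a relative of the RNA-binding cofactor that stimulates eIF4A, read 740, 579.3, 789.7, 581.5 and 852 in wild type. The bgcn arrays were at 19.8, 2.1, 2.2, 5.6 and 8.2, and the Os+bgcn arrays between 1.3 and 11.4 with a median of 4.85. Wild-type and mutant arrays did not overlap, with log2 differences of -4.81 ± 0.21 and -4.91 ± 0.20 (adjusted p = 4.9e-14 and 1.5e-14). The probe set passed the filter through wild-type arrays alone, so this separation was fixed by its selection.

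eIF4E3 fell less and kept a signal in mutant testes. It was at 1714.9, 1404.5, 1892.5, 2080.9 and 1687.3 in wild type and at 243.1, 323.7, 441.2, 434.9 and 355.5 in bgcn. On Os+bgcn arrays it ran from 276.2 over a median of 512 to 675.4. Wild-type and mutant arrays did not overlap, and every mutant array lay above the filter value of 42.9. The mean was 1756 ± 252 (SD, n = 5) in wild type, 4.88-fold lower in bgcn at 360 ± 82.5 (SD, n = 5) and 3.48-fold lower in Os+bgcn at 505 ± 133 (SD, n = 6). Log2 differences were -2.25 ± 0.20 (adjusted p = 3.4e-09) and -1.80 ± 0.19 (adjusted p = 4.3e-08).

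eIF4E6 was a dim probe set with another order. It read 78.3, 85.3, 70, 54.5 and 93.1 in wild type, 24.2, 51.1, 31.5, 48.6 and 9.1 in bgcn, and 231.3, 89.8, 81.6, 152.2, 145.6 and 132.5 in Os+bgcn. The bgcn arrays were below all others and the Os+bgcn arrays overlapped with wild type. It was lower in bgcn by -0.94 ± 0.27 (adjusted p = 0.0042) and higher in Os+bgcn than in wild type by 0.68 ± 0.26 (adjusted p = 0.024). The latter call was lost on centring arrays on their median (0.45, adjusted p = 0.12) and turned to -0.82 (adjusted p = 0.053) on centring on ribosomal protein genes.

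eIF4G2, the second eIF4G gene, had high signals in all 3 genotypes. They were 1666, 1899.5, 1416.2, 1320.2 and 1576.2 in wild type, 777.7, 1087.1, 1055, 1194 and 1004 in bgcn, and 1689.4, 1567.2, 1392.7, 1891.7, 1705.2 and 2046 in Os+bgcn. The bgcn arrays lay below all arrays of both other groups. eIF4G2 was lower in bgcn than in wild type by -0.62 ± 0.14 (adjusted p = 7.6e-04), while between Os+bgcn and wild type it was at 0.12 ± 0.14 (adjusted p = 0.44). Quantile normalization gave 0.37 there (adjusted p = 0.029) and ribosomal centring -1.37 (adjusted p = 2.8e-05), so the direction of eIF4G2 in Os+bgcn depends on the scaling. No gene of the eIF4A type was among the paralogs.

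Each paralog was then set against its standard factor on the same array, as the difference of their log2(signal + 18.8) values, here called the log2 ratio, and the ratios were compared between groups of arrays. The 9 pairs in 3 comparisons gave 27 exact two-sided permutation tests, adjusted together. Against wild type all 9 pairs fell in bgcn (exact permutation p = 0.0079 each, the smallest that 5 against 5 arrays allow, adjusted p = 0.011). The paralogs of 5 of these pairs (eIF4E4, eIF4E5, eIF4E7, eIF3d2 and eIF3g2) passed the filter through wild-type arrays alone. They therefore had to be lower in the mutants. In the eIF3f2 pair the standard factor, eIF3f1, needed mutant arrays to pass, so its selection favoured a lower ratio. The pairs of eIF4E3, eIF4E6 and eIF4G2 carry no such limit. In Os+bgcn 8 of 9 fell (exact permutation p = 0.0043 each, the smallest for 6 against 5, adjusted p = 0.011). The exception was eIF4E6 against eIF4E1, at -0.50 (exact permutation p = 0.061, adjusted 0.082).

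Within the eIF4E family, the log2 ratio to eIF4E1 differed between bgcn and wild type by -3.33 for eIF4E3, -6.70 for eIF4E4, -6.50 for eIF4E5, -4.94 for eIF4E7 and -2.02 for eIF4E6. Between Os+bgcn and wild type the differences were -2.97, -6.82, -6.58 and -4.71 for eIF4E3, eIF4E4, eIF4E5 and eIF4E7. For eIF4E3 the ratio was 0.84 ± 0.17 (SD, n = 5) in wild type, -2.49 ± 0.27 (SD, n = 5) in bgcn and -2.13 ± 0.37 (SD, n = 6) in Os+bgcn. The ratio of eIF4G2 to eIF4G1 was 4.24 ± 0.26 (SD, n = 5) in wild type, 0.52 ± 0.32 (SD, n = 5) in bgcn and 1.19 ± 0.12 (SD, n = 6) in Os+bgcn, with differences of -3.72 and -3.05.

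**Figure D3:**
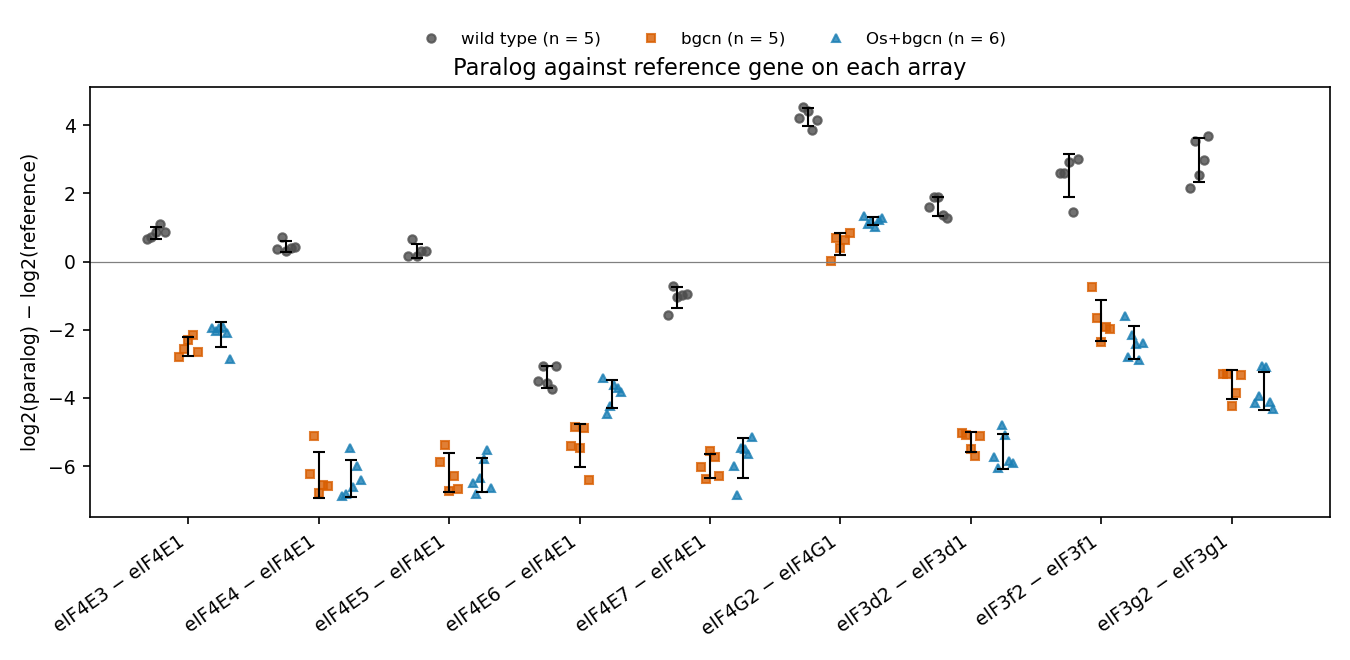
Log2 ratio of each paralog to its standard factor on the same array (y axis), with 1 point per array of wild type (5), bgcn (5) and Os+bgcn (6) and bars from 1 SD below to 1 SD above the group mean. The mutant points lie below the wild-type points in every pair but eIF4E6 against eIF4E1, where Os+bgcn overlaps with wild type; the height of a pair depends on its probes, so only shifts within a pair can be compared.

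Of the eIF3 subunits with a standard name, 12 of 14 probe sets (13 genes) were higher than wild type in each mutant and 2 did not pass, eIF3k and a second probe set of eIF3h. Of all tested probe sets 47.2% were higher in bgcn and 47.3% in Os+bgcn. Their log2 differences ran from 0.25 to 4.44 in bgcn with a median of 1.47, and from 0.32 to 4.38 in Os+bgcn with a median of 1.70. After ribosomal centring 3 were higher and 5 lower in bgcn, and 4 higher and 2 lower in Os+bgcn. Over all 10422 tested probe sets that centring gave 247 higher and 7697 lower in bgcn, and 928 and 6118 in Os+bgcn. The largest log2 difference upwards among the 42 probe sets was that of eIF3f1, a subunit of the eIF3 octamer. It read 41.7, 50.3, 33.8, 140.3 and 20.2 in wild type and 753.3, 1261.8, 2204.5, 1646.7 and 1782.1 in bgcn. In Os+bgcn the lowest value was 856, the median 1430 and the highest 1832.9.

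Every mutant array of eIF3f1 lay above the highest wild-type array, replicate 4 at 140.3, and 3 of the 5 wild-type arrays lay below the filter value. The probe set thus needed mutant arrays to pass the filter. The log2 difference was 4.44 ± 0.31 (adjusted p = 1.2e-10) in bgcn and 4.38 ± 0.30 (adjusted p = 6.2e-11) in Os+bgcn. Ribosomal centring left 2.42 and 2.89, both higher.

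eIF3d1, the subunit that can bind a cap itself in mammals, was at 157.3, 141.9, 142.7, 147.5 and 169.8 in wild type and at 838.7, 911.8, 1172.4, 1366.9 and 950 in bgcn. In Os+bgcn it ran from 1320.4 over a median of 1587 to 1844.7. The log2 differences were 2.62 ± 0.13 and 3.23 ± 0.13 (adjusted p = 7.0e-13 and 1.2e-14). eIF3g1, an RNA-binding subunit, was at 45.9, 13.1, 54.4, 37.3 and 17 in wild type, at 218.5, 299.2, 505.1, 487.6 and 249 in bgcn and between 309.3 and 503.2 in Os+bgcn. It was higher by 2.82 ± 0.25 and 3.17 ± 0.24, and needed mutant arrays to pass the filter. Neither gene had a mutant array within the wild-type range.

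Of the subunits without a second copy, eIF3c, part of the eIF3 core, was higher by 2.81 ± 0.32 in bgcn and 3.19 ± 0.30 in Os+bgcn. The eIF3c probe set, too, passed the filter only with the help of mutant arrays. eIF3a, the largest scaffold subunit, was higher by 1.14 ± 0.19 and 1.66 ± 0.18. In bgcn its lowest array, replicate 1 at 275.2, stood just above the highest wild-type array at 274.3. The probe sets of eIF3b, eIF3e, eIF3i, eIF3j, eIF3l and eIF3m were higher by 0.98 to 1.97 in bgcn and by 1.34 to 2.04 in Os+bgcn. eIF3k, a peripheral subunit, was at 606 ± 41.2 (SD, n = 5) in wild type, 744 ± 205 (SD, n = 5) in bgcn and 800 ± 213 (SD, n = 6) in Os+bgcn, with differences of 0.25 (adjusted p = 0.27) and 0.35 (adjusted p = 0.11). The probe sets of eIF3h disagreed: the one that passed gave 1.44 in both mutants, the other 0.57 (adjusted p = 0.11) and 0.32 (adjusted p = 0.34).

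**Figure D4:**
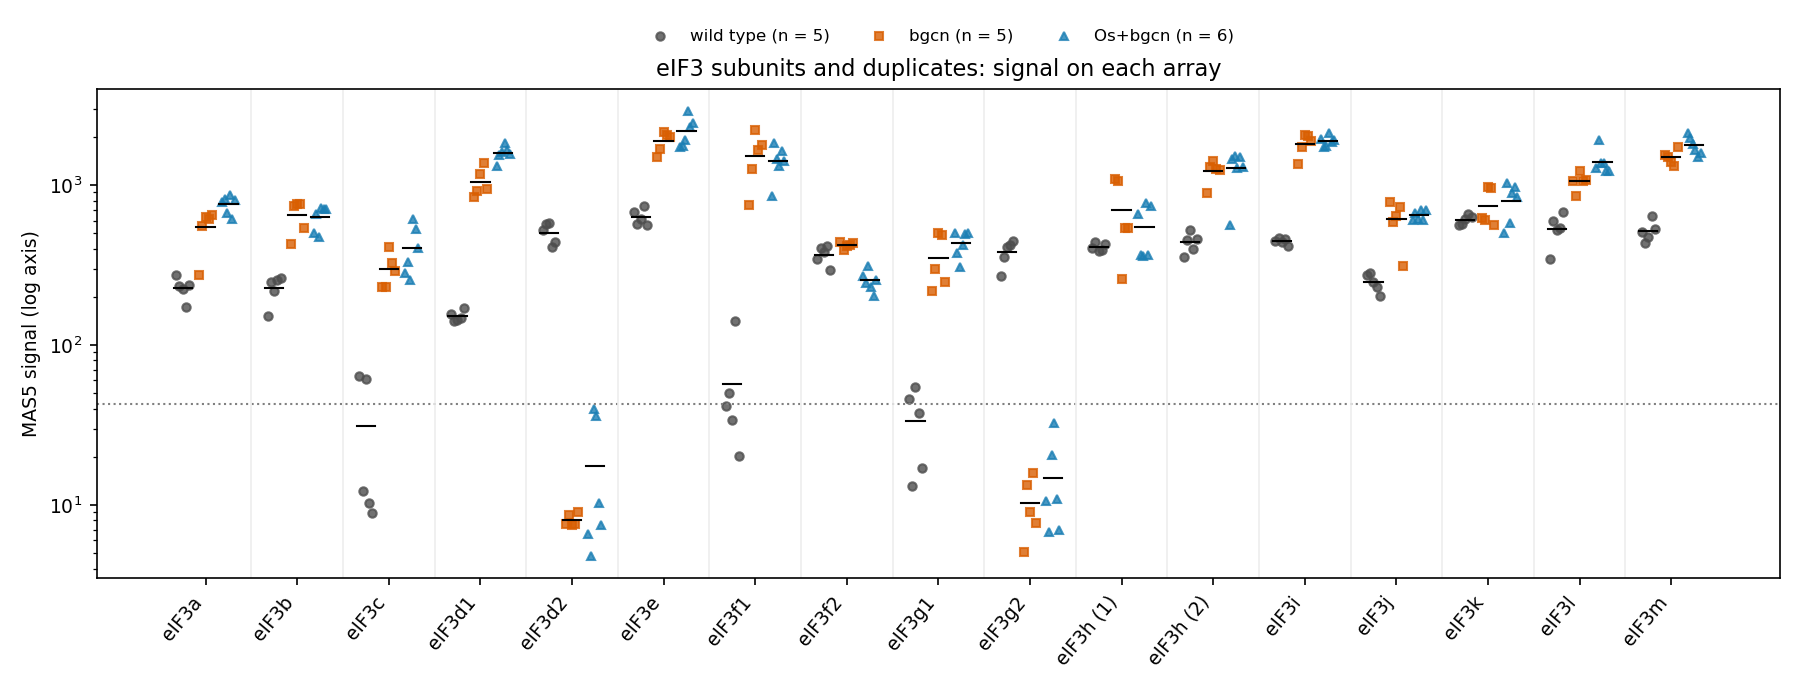
Array signal on a log axis (y axis) of the eIF3 subunits and their second copies (numbers in parentheses mark both eIF3h probe sets), with 1 point per array of wild type (5), bgcn (5) and Os+bgcn (6), black bars at group means and a dotted line at 42.9, the filter value. eIF3d1, eIF3f1 and eIF3g1 are higher in both mutants, also after centring on ribosomal protein genes except for the call of eIF3d1 in bgcn, while eIF3d2 and eIF3g2 fall below the dotted line and eIF3f2 stays between 203 and 441.

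The second copies of eIF3 subunits did not move alike. eIF3d2 read 520.4, 574.7, 578.7, 411.3 and 439.4 in wild type and 7.6, 8.6, 7.5, 7.6 and 9 in bgcn. In Os+bgcn it was at 6.6, 4.8, 39.9, 35.9, 10.3 and 7.5, so 2 arrays stood above the other 4. The lowest wild-type array was 45.7 times the highest bgcn array, and the log2 differences were -4.27 ± 0.25 and -3.94 ± 0.24 (adjusted p = 4.8e-12 and 6.8e-12).

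eIF3g2 read 269.2, 354, 408.8, 420.5 and 445 in wild type and 5.1, 13.4, 9, 15.9 and 7.7 in bgcn. In Os+bgcn it was at 10.6, 6.8, 20.4, 32.3, 10.9 and 7, with the same 2 arrays, replicates 3 and 4, highest. The log2 differences were -3.77 ± 0.22 and -3.60 ± 0.21 (adjusted p = 4.6e-12 and 3.8e-12). Wild-type and mutant arrays did not overlap for eIF3d2 or eIF3g2, which selection through wild-type arrays alone had fixed for both.

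eIF3f2 was present at a like level in wild-type and bgcn testes. It read 347.3, 402.1, 382, 414.7 and 292.8 in wild type, 440.6, 390.8, 414.5, 420.9 and 436.6 in bgcn, and 270.7, 245.2, 313.5, 230.8, 203.3 and 256.6 in Os+bgcn. The difference between bgcn and wild type, 0.19 ± 0.13, did not pass (adjusted p = 0.18), and it was -1.82 (adjusted p = 1.5e-06) after ribosomal centring. Os+bgcn was lower than wild type by -0.51 ± 0.12 (adjusted p = 9.1e-04), with 1 Os+bgcn array inside the wild-type range.

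Relative to their standard subunits, the log2 ratio of eIF3d2 differed from wild type by -6.90 in bgcn and -7.18 in Os+bgcn, that of eIF3g2 by -6.59 and -6.77, and that of eIF3f2 by -4.25 and -4.89. In bgcn the eIF3f2 signal itself did not pass, and eIF3f1, which needed mutant arrays to pass the filter, was higher than in wild type.

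Each of the 5 subunits of eIF2B, the exchange factor of eIF2, had a probe set that was higher in both mutants. The background was 47.2% of all tested probe sets higher in bgcn and 47.3% in Os+bgcn. The gamma subunit, part of its catalytic subcomplex, read 10, 6.5, 6.6, 7.9 and 24.8 in wild type, 166.2, 156.3, 129.6, 164.1 and 145.3 in bgcn and 143.6 to 206 in Os+bgcn. Its log2 differences were 2.54 ± 0.18 and 2.73 ± 0.17 (adjusted p = 8.6e-11 and 1.1e-11). The catalytic epsilon subunit was higher by 2.52 ± 0.23 and 2.76 ± 0.22, and the regulatory alpha subunit by 2.28 ± 0.25 and 2.31 ± 0.24. For these 3 subunits no mutant array reached the wild-type range. The gamma and epsilon probe sets were above the filter value on the 11 mutant arrays and on no wild-type array. Their selection thus already favoured a difference. The alpha probe set, above the filter value in wild type only on replicate 1 (73.4), needed mutant arrays to pass as well.

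The regulatory beta and delta subunits differed less, by 0.69 ± 0.18 and 0.57 ± 0.18 in bgcn and 0.57 ± 0.18 and 0.68 ± 0.18 in Os+bgcn, with overlapping arrays. Both were lower than wild type after ribosomal centring, at -1.33 and -1.45 in bgcn and at -0.93 and -0.81 in Os+bgcn. Centring arrays on their median removed the calls of delta in bgcn (0.34, adjusted p = 0.098) and beta in Os+bgcn (0.34, adjusted p = 0.087). Quantile normalization also removed the call of beta in Os+bgcn (0.28, adjusted p = 0.16). The untested delta probe set had mean signals of 41.5 in wild type, 48.3 in bgcn and 29.6 in Os+bgcn. eIF2beta, a subunit of the tRNA-carrying eIF2, was at 504 ± 92.6 (SD, n = 5) in wild type, 866 ± 107 (SD, n = 5) in bgcn and 1139 ± 106 (SD, n = 6) in Os+bgcn. It was higher by 0.77 ± 0.13 and 1.16 ± 0.13 (adjusted p = 3.4e-05 and 7.5e-08), and turned to -1.25 and -0.34 on ribosomal centring.

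Of the 8 probe sets for start codon selection and subunit joining, 1 was higher, 1 lower and 6 did not pass in each mutant. The background was 47.2% of all tested probe sets higher and 22.6% lower in bgcn, and 47.3% and 24.2% in Os+bgcn. eIF2A, which can deliver initiator tRNA outside the eIF2 pathway, was the standard factor that fell. It read 2765, 3248.9, 2846.7, 2502.4 and 2998.8 in wild type and 1921.5, 1752.6, 1889.3, 1585 and 1433.9 in bgcn. Its Os+bgcn values ran from 972 over a median of 1295 to 1500.7. No mutant array reached the wild-type range, and the log2 differences were -0.74 ± 0.14 (adjusted p = 8.4e-05) and -1.17 ± 0.13 (adjusted p = 1.3e-07).

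eIF1, which guards start codon choice, was at 2064 ± 161 (SD, n = 5) in wild type, 2022 ± 458 (SD, n = 5) in bgcn and 1687 ± 296 (SD, n = 6) in Os+bgcn. eIF5, which triggers GTP hydrolysis on eIF2, was at 576 ± 90.0, 498 ± 62.7 and 561 ± 74.7 in the same order. Neither passed against wild type, with differences of -0.05 and -0.30 for eIF1 and -0.20 and -0.03 for eIF5. None of the 3 probe sets of eIF5B, the subunit-joining GTPase, passed, and their differences spanned -0.79 to 0.61. With arrays centred on their median, eIF5 in bgcn (-0.42, adjusted p = 0.014) and eIF1 in Os+bgcn (-0.53, adjusted p = 0.0046) passed as lower. So did 2 eIF5B probe sets in bgcn (-1.01 and -0.77, adjusted p = 0.030 and 0.015). Of both eIF6 probe sets the brighter was higher by 0.82 ± 0.23 and 1.29 ± 0.22, and the dimmer did not pass at 0.10 and 0.04. After ribosomal centring eIF1, eIF5 and eIF2A passed as lower than wild type in both mutants. The brighter eIF6 probe set did so in bgcn (-1.20, adjusted p = 0.0010) but not in Os+bgcn (-0.20, adjusted p = 0.59).

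Between the mutants the shares of initiation factors called were near or below those of all tested probe sets. Of 42 probe sets 5 were higher and 2 lower in Os+bgcn than in bgcn, or 11.9% and 4.76%, beside a background of 11.6% and 8.91% of all tested probe sets. Arrays did not overlap for 2 higher probe sets (eIF4E6 and eIF4G2) and 1 lower one (eIF3f2), where 7.81% and 5.33% of all tested probe sets did not overlap in these directions. The median difference of the standard factors was 0.15 beside 0.03 over all tested probe sets. Beside these results, 12 of 12 accessory gland markers were lower and 7 of 8 cyst and hub markers higher in Os+bgcn than in bgcn, and 3 of 6 early germline markers were higher.

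Among the genes that passed, those that differed most between the mutants were paralogs. eIF4E6 was higher in Os+bgcn, with 139 ± 53.8 (SD, n = 6) against 32.9 ± 17.5 (SD, n = 5), a log2 difference of 1.62 ± 0.26 (adjusted p = 1.5e-04); 3 of the 5 bgcn arrays lay below the filter value. Its lowest Os+bgcn array was 1.60 times its highest bgcn array. eIF4G2 was 1.68-fold higher, by 0.74 ± 0.14 on the log2 scale (adjusted p = 6.9e-04), and its arrays were separated by a factor of 1.17. eIF3f2 was lower, at 253 ± 37.4 (SD, n = 6) against 421 ± 19.9 (SD, n = 5), by -0.70 ± 0.12 (adjusted p = 3.5e-04). These 3 calls held with each array left out in turn and with bgcn replicates 1 and 2, the arrays with the highest accessory gland values, left out together. On ribosomal centring eIF4E6 and eIF4G2 remained higher and eIF3f2 no longer passed.

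Relative to their standard factors on the same array, eIF4E6 was higher by 1.52 and eIF4G2 by 0.67 in Os+bgcn than in bgcn (exact permutation p = 0.0043 for each, adjusted 0.011). The eIF3f2 ratio differed by -0.64 (adjusted p = 0.095) and the eIF4E3 ratio by 0.36 (adjusted p = 0.13), neither past the threshold. For eIF4E4, eIF4E5, eIF4E7, eIF3d2 and eIF3g2, whose signals were near the bottom of the range in both mutants, differences of -0.28 to 0.23 did not pass.

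The standard factors that passed between the mutants moved by less. eIF3d1 was higher in Os+bgcn by 0.61 ± 0.13 (adjusted p = 0.0020), and this held with each array left out. eIF3a was higher by 0.52 ± 0.18 (adjusted p = 0.049), eIF2beta by 0.39 ± 0.13 (adjusted p = 0.035), and eIF2A was lower by -0.43 ± 0.13 (adjusted p = 0.028). These last 3 did not pass without bgcn replicate 1, nor without bgcn replicate 2, and without both they were at 0.26, 0.33 and -0.36 (adjusted p = 0.25, 0.15 and 0.13). eIF3a rests on bgcn replicate 1 in particular, where it read 275.2 while the other 4 bgcn arrays read 552.9 to 653.4; without it the difference was 0.30 (adjusted p = 0.12).

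**Figure D5:**
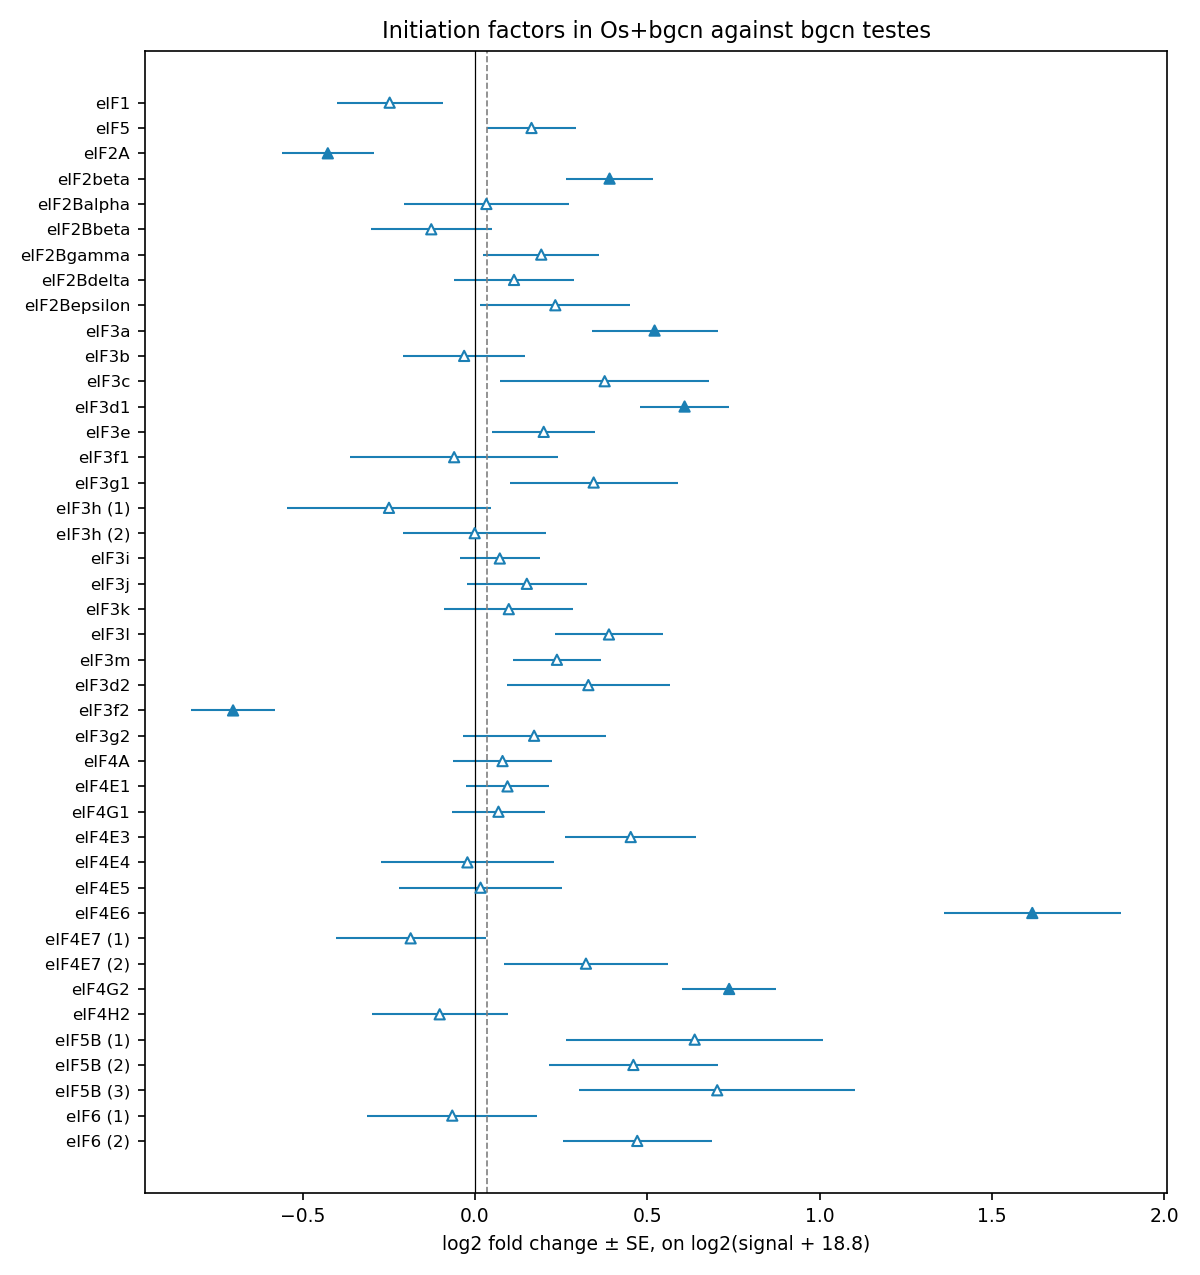
Log2 differences between Os+bgcn (6 arrays) and bgcn (5 arrays) on the log2(signal + 18.8) scale (x axis, with SE) for the 42 tested probe sets. Filled symbols passed an adjusted p of 0.05, and numbers in parentheses mark probe sets of 1 gene. The dashed line is the median of all tested probe sets (0.03). Of the filled symbols, eIF4E6 and eIF4G2 stand furthest to the right and eIF3f2 furthest to the left. An open eIF5B symbol lies at 0.70, and eIF4E4 and eIF4E5 lie near 0.

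Other genes of the translation pathway were taken from 3 lists. Of 9 regulators of the cap complex, 7 were higher, 1 lower and 1 did not pass in bgcn (median 1.04), and 8 were higher and 1 lower in Os+bgcn (median 1.22). Beside these and the next counts, 47.2% of all tested probe sets were higher and 22.6% lower in bgcn, and 47.3% and 24.2% in Os+bgcn. larp, a La-related RNA-binding protein, was higher by 2.91 and 3.23, the repressors brat and pum by 2.47 and 2.36 in bgcn, and Lk6, the eIF4E kinase, by 1.63. pAbp, the poly(A)-binding protein that eIF4G contacts, was higher by 1.04 ± 0.25 and 0.56 ± 0.24 (adjusted p = 0.0010 and 0.043). Paip2, an inhibitor of pAbp, was the one that fell, from 1326 in wild type to 171 and 175, a log2 difference of -2.84 in each mutant.

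Of 9 tested genes on a list of initiation kinases and other factors, 8 were higher in each mutant (median 1.12 and 1.11). The remaining 1, the helicase gene bel, did not pass. The list also holds mbm and IKKepsilon, whose part in initiation was not tested. The eIF2alpha kinases Gcn2 and PEK were higher by 1.93 and 1.32 in bgcn and by 2.00 and 1.96 in Os+bgcn, and the re-initiation factors DENR and MCTS1 by 0.49 and 0.83 in bgcn. Of 9 elongation and termination genes, 6 were higher in bgcn and 7 in Os+bgcn, and the others did not pass (median 1.18 and 0.71). eRF3, the GTPase of termination, was higher by 3.18 and 3.41, eEF1gamma by 2.78 in both and eEF1delta by 2.43 and 2.57, while eRF1, its partner that reads stop codons, was at 0.08 and -0.21 (adjusted p = 0.65 and 0.18). All 3 list medians lay above the median of all tested probe sets and below that of the 37 ribosomal protein genes, 35 of which were higher in bgcn and 33 in Os+bgcn.

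Between the mutants none of the 9 cap regulators passed. S6k and mbm were higher and crc, the ATF4 homolog, was lower on the list of initiation kinases and other factors. HBS1 was higher and its ribosome rescue partner pelo lower among the elongation and termination genes, where eEF5 was lower too, beside 11.6% of all tested probe sets higher and 8.91% lower. Of the ribosomal protein genes 5 were lower and 32 did not pass, with a median of -0.32.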

How the data were processed

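RNA of whole testes was measured on 16 single-colour Affymetrix arrays, with about 5 µg of total RNA per sample. The deposited table holds 1 linear signal intensity per probe set and array. Per the submitters' processing notes the authors computed these signals with MAS5, of a version not named in the sources used here. No detection call was used, so a low signal is given as read. The number of arrays limits the precision.

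Probe sets were named through the platform annotation. Signals were transformed to log2(signal + 18.8), 18.8 being the pooled 25th percentile, and fold changes on this scale are understated for dim probe sets. Testing required a signal above 42.9, the 40th percentile of all values, on 5 or more arrays. Models were fitted with limma 3.58.1 in R 4.3.3, with 1 coefficient per group over all 16 arrays, a trend in the prior variance, and Benjamini-Hochberg adjustment over 10422 probe sets. Pairs of genes were tested by exact two-sided permutation of arrays (252 or 462 regroupings). Of genes in the pathway and marker lists, and of genes in pairs, the probe set with the highest mean was used. Both procedures were tested on simulated data. Other steps ran in Python 3.11.15 (pandas 2.3.3), with figures by matplotlib 3.10.9.

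Groups follow the sample titles. The wild-type samples' extraction text speaks of bgcn testes, but their spermatid signal sets them apart from every bgcn array. No arrays were duplicates: at most 55 probe sets had identical values on any 2 arrays of the same group or of different groups. Replicate numbers did not pair arrays: deviations of same-numbered arrays correlated at -0.11 to 0.20. Every eIF gene may be named; values on each array, or for groups of 6 arrays their range and in most cases the median, are given for the eIF4E, eIF4G and eIF4A genes, genes with a second copy, and the pair of largest changes in each direction of each comparison. The genes, lists and tests were chosen with earlier results of these data known. Alternatives changed the normalization, pseudocount, filter, variance model, replicate block, arrays in the fit and probe set of a gene, as described at the end.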

Additional observations from a re-analysis of the deposited data

Results flagged for a closer look

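In 11 of 129 sets of arrays (1 probe set in 1 genotype each) the highest or lowest array stood far from the others; chance gives this in about 1 in 20 sets, or 5%. On bgcn replicate 1, eIF2Bdelta read 284.1 while the other bgcn arrays read 428.1 to 461.3, eIF3a read 275.2 against 552.9 to 653.4, and eIF3h read 893.4 against 1250.5 to 1411.5. The same eIF3h probe set read 561.4 on Os+bgcn replicate 1 against 1279.9 to 1527.3. eIF3l read 1913.4 on Os+bgcn replicate 2 against 1223.1 to 1372.8.

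On wild-type replicate 1, eIF2Bepsilon read 39.3 against 9.7 to 13.4, and the brighter eIF4E7 probe set read 352.4 against 463.3 to 507.2. eIF2Bgamma read 24.8 on wild-type replicate 5 against 6.5 to 10. Among dim values, eIF4E4 read 39.2 on bgcn replicate 2 against 1.4 to 5.9, and eIF4E7 read 2.3 on Os+bgcn replicate 2 against 23.4 to 41.4. The dimmer eIF6 probe set read 56 on bgcn replicate 4 against 114.1 to 143.7.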

How the results depend on the processing

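Against wild type, counts of eIF probe sets called stayed within 1.5 times the reported ones under every alternative run except ribosomal centring. That centring gave 4 higher and 28 lower in bgcn and 8 and 21 in Os+bgcn. Over all 10422 tested probe sets it gave 247 and 7697 in bgcn, 928 and 6118 in Os+bgcn, and 2283 and 221 between the mutants. Between the mutants the 5 higher and 2 lower calls became 12 and 0 under ribosomal centring, 8 and 1 under quantile normalization, 3 higher without the intensity trend, and 3 and 1 without bgcn replicates 1 and 2; leaving out each array gave 3 to 6 higher and 1 to 2 lower. The cause was not tested.

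Ribosomal centring turned the sign in bgcn against wild type for eIF2Bbeta (-1.33), eIF2Bdelta (-1.45), eIF2beta (-1.25), eIF3a (-0.87), eIF3b (-0.59), eIF3e (-0.48), eIF3f2 (-1.82), eIF3h (-1.45 and -0.58), eIF3i (-0.053), eIF3j (-0.83), eIF3k (-1.77), eIF3l (-1.04), eIF3m (-0.51), eIF4A (-0.52), eIF4E1 (-0.93) and eIF6 (-1.92 and -1.20). In Os+bgcn against wild type it did so for eIF2Bbeta (-0.93), eIF2Bdelta (-0.81), eIF2beta (-0.34), eIF3b (-0.10), eIF3h (-1.18 and -0.057), eIF3j (-0.16), eIF3k (-1.15), eIF3l (-0.13), eIF4E1 (-0.32), eIF4E6 (-0.82), eIF4G2 (-1.37), eIF5B (-0.88) and eIF6 (-1.46 and -0.20), and between the mutants for eIF2A (0.10). Without bgcn replicates 1 and 2 an eIF5B probe set turned from -0.09 to 0.76 in bgcn.

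Without bgcn replicates 1 and 2, 3 arrays against 5 allow no lower adjusted p than 0.051 for pairs compared in bgcn. The differences from wild type were then -3.21 for eIF4E3, -7.09 for eIF4E4, -6.87 for eIF4E5, -2.21 for eIF4E6, -4.80 for eIF4E7, -3.62 for eIF4G2, -7.05 for eIF3d2, -4.60 for eIF3f2 and -6.80 for eIF3g2, and between the mutants 1.71 for eIF4E6 and 0.57 for eIF4G2. Pairs that newly passed were eIF4E6 in Os+bgcn against wild type under quantile normalization (-1.10) and the larger pseudocount (-0.59), and eIF3f2 between the mutants under quantile normalization (-0.92). With each array left out, eIF4E6 in that comparison ranged from -0.59 to -0.38, eIF3f2 between the mutants from -0.80 to -0.40 and eIF4E3 between the mutants from 0.28 to 0.50, each passing without 1 Os+bgcn array.

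With the replicate number as a block, 22 probe sets were higher and 11 lower in bgcn, 22 and 10 in Os+bgcn, and 4 and 2 between the mutants; the numbers do not pair the arrays. Signals below the filter value have no reliable order.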
